A study of Mus musculus with 12 samples.

Results

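The genes described here are 23 immediate early genes and 15 heat shock genes, 38 of the 53715 genes in the expression tables. They were taken from fixed lists of gene symbols, matched through Ensembl identifiers to GENCODE M21, and the rule itself uses no expression value. All 38 were found. A filter on low counts left 36 for testing, since Egr2 and Hspb8 were too low in every group, so counts of tested genes are out of 22 immediate early and 14 heat shock genes.

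RNA came from organoids of mouse pancreatic ductal adenocarcinoma, which are 3-dimensional epithelial cultures grown in Matrigel. They were derived from tumours of genetically engineered mice (strain C57/Bl6), in which Cre driven by the pancreatic Pdx1 promoter switches on mutant Trp53 (R172H) among its targets. The sample labels give the other Trp53 allele as lost, whereas the study's design text gives it as wild type. There were 2 organoid lines, mT6 and mT69a, and 3 conditions in each. The control was a clone with the neutral Rosa26 locus cut that carried an empty vector. The knockout was a clone lacking Spdef, likewise with an empty vector, 1 clone in each line, so loss of Spdef and the clone cannot be told apart. The vector condition was the knockout clone of the same number carrying an SPDEF expression vector. Each of the 6 groups had 2 libraries, whose titles end in replicate 1 or replicate 2, here called set 1 and set 2. The labels do not say what the replicate number stands for or whether each library was its own culture. The p-values therefore reflect how much these libraries varied, which may be technical. Comparing the sets, the knockout, the vector and the lines asks how these rapidly responding genes varied across the study.

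Immediate early genes are transcribed within minutes of a growth signal, stretch, handling or another stimulus, without new protein synthesis. Many encode transcription factors such as the AP-1 proteins Fos and Jun and the zinc finger factor Egr1, and others encode brakes on the same signals, such as the phosphatase Dusp1 and the RNA-binding protein Zfp36. Their promoters are read by the serum response factor with its ETS-family partners and by CREB-type factors, and their transcripts are short-lived. Heat shock genes encode chaperones that fold or refold proteins. The heat shock factor Hsf1 induces them when unfolded protein accumulates, although Hspa8, Hsp90aa1, Hspd1 and Hspe1 are also abundant in unstressed cells. In epithelial cultures both groups are known to respond to dissociation and handling.

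The promoters of 6 genes are printed because they carry the motifs by which these groups are usually recognised and because their genes take part in the results below. Where a gene had several starts, the window with the most motif matches is printed. The sequences are RefSeq's on GRCm38.p6, from 250 bases before to 50 bases after the transcription start, 5′ to 3′ along the gene. The windows are chr12:85473640-85473939 on the plus strand, chr17:26508423-26508722 on the minus strand, chr15:101266596-101266895 on the plus strand, chr7:28379179-28379478 on the minus strand, chr17:34959189-34959488 on the minus strand and chr5:149636266-149636565 on the minus strand. Capitals mark matches on either strand to the CArG box bound by serum response factor, to the CREB-type motif TGACG (also within TGACGTCA), or to the heat shock element parts GAANNTTC and TTCNNGAA (also where they overlap in a 3-unit element).
Fos: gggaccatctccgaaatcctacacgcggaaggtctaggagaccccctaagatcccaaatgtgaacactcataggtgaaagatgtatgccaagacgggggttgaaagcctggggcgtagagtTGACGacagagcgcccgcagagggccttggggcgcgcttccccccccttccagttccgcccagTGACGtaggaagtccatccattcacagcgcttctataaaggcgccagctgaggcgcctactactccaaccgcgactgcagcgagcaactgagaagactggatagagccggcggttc
Dusp1: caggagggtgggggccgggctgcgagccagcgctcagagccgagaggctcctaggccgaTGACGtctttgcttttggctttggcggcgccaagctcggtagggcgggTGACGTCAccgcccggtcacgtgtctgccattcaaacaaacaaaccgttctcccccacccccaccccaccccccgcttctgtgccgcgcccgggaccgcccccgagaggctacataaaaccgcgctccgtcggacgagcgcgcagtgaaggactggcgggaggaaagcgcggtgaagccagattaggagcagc
Nr4a1: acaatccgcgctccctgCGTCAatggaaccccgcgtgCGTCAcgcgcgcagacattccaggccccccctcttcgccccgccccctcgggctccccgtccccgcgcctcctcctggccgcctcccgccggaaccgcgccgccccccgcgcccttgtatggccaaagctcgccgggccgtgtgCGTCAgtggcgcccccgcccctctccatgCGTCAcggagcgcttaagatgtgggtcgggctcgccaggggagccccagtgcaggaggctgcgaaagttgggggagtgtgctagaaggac
Zfp36: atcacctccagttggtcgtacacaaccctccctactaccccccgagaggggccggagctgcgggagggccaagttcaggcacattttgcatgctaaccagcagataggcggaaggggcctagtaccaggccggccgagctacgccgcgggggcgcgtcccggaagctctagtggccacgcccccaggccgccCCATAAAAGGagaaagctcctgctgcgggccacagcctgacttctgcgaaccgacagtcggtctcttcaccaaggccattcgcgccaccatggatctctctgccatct
Hspa1b: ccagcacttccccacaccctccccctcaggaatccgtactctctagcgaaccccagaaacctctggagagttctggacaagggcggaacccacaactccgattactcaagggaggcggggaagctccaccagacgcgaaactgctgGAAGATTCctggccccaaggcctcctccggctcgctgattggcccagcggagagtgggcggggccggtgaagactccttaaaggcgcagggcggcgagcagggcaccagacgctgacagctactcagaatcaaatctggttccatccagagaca
Hsph1: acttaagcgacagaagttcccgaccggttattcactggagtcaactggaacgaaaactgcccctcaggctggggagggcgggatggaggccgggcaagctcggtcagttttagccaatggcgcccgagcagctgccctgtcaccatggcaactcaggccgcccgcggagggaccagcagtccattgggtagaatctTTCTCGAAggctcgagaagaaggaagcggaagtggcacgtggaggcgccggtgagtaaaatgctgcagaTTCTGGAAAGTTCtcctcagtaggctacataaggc
RefSeq windows were found for 31 of the 38 genes, with 43 windows in all because some genes have several starts. Egr1, Egr3, Hsp90aa1, Hspa8, Ier2, Klf10 and Myc had none. The motif GAANNTTC occurred in a window of 10 of the 13 matched heat shock genes and of 1 of the 18 matched immediate early genes (Jun), and in 7.86% of all 32851 windows. The 3-unit heat shock element, GAANNTTC followed directly by NNGAA, was found for 4 heat shock genes (Chordc1, Hspd1, Hspe1 and Hsph1), no immediate early gene and 0.603% of all windows. TTCNNGAA was found for the same 4 heat shock genes and for Egr2, and in 8.52% of all windows. TGACG occurred for 11 of 18 immediate early and 5 of 13 heat shock genes and in 20.8% of all windows. Its palindrome TGACGTCA was found for Btg2 and Dusp1 and in 1.79% of windows. The printed Nr4a1 window, chosen as the one with the most matches, holds TGACG at 4 places. All are on the opposite strand and so printed as CGTCA. The printed Nr4a1 and Dusp1 windows lie well inside the gene intervals given below. That of Zfp36 also lies inside its gene, which runs from 28376784 to 28380253 on chromosome 7. The CArG box was found for Egr2 and Zfp36 and in 1.63% of windows, and the AP-1 motif TGANTCA for Csrnp1 and Bag3 and in 7.81%. These gene counts take a match in any window of a gene, whereas the percentages count single windows. Counted by window, TGACG was in 16 of 25 immediate early and 5 of 18 heat shock windows. GAANNTTC was in 1 of 25 and 11 of 18, and TTCNNGAA in 1 of 25 and 5 of 18. The 3-unit element was in 5 of 18 heat shock windows and the CArG box in 5 of 25 immediate early windows. TGACG, GAANNTTC and TTCNNGAA were added to the search after the windows had been read. A match describes letters in the window and is not evidence of binding.

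The libraries held 9094295 to 28903831 expected counts. Epithelial markers were strong in every library, with all 8 passing the filter. No marker of fibroblasts, endothelium or acinar cells passed, and of 8 immune markers only Cd68 did. Spdef itself had 30 and 29 counts in the mT6 controls and 0 to 4 in each of the other 10 libraries, including both sets of the vector condition. Loss of Spdef could therefore be seen in mT6 but not in mT69a, whose controls had 2 and 4 counts and knockout libraries 2 and 0. Directions drawn from the mT69a knockout libraries and from the vector libraries rest on their labels.

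In GENCODE M21 on GRCm38, Fos (ENSMUSG00000021250) lies on chromosome 12 from 85473890 to 85477273, Nr4a1 (ENSMUSG00000023034) on chromosome 15 from 101254269 to 101274795 and Dusp1 (ENSMUSG00000024190) on chromosome 17 from 26505590 to 26562128. Hspa1b (ENSMUSG00000090877) lies on chromosome 17 from 34956436 to 34959238, Hspb1 (ENSMUSG00000004951) on chromosome 5 from 135887919 to 135889563 and Serpinh1 (ENSMUSG00000070436) on chromosome 7 from 99345376 to 99353239. Values are for whole genes.

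Levels of different genes were compared in TPM, which corrects for transcript length. The constitutive chaperones were the most abundant. Hspa8, the constitutive Hsp70, had a median of 1108 TPM over the 12 libraries (724 to 2082), and Hsp90aa1 had 572 TPM (365 to 834). The mitochondrial chaperonins Hspd1 and Hspe1 followed at 256 and 153 TPM. Ier3, an immediate early regulator of cell survival, was the most abundant of its class at a median of 101 TPM, with a range of 50 to 419. Junb, Jund, Myc and Klf6, all transcription factors, had medians of 49.3 to 60.2 TPM, and their ranges overlapped. Fos had 17.3 TPM (8.06 to 55.3), Atf3 14.4 (1.69 to 36.0), Dusp1 9.48 (2.29 to 58.7), Jun 6.45 (1.67 to 25.2) and Egr1 5.71 (2.04 to 13.4), and these neighbours overlapped in range. The inducible Hsp70 gene Hspa1b had 55.5 TPM (31.6 to 133). Serpinh1 had a median of 0.385 TPM (0 to 8.94), which joins 0.05 in mT6 and 5.6 in mT69a. At the bottom, Egr2 had 0.11 TPM, Fosb 0.105, Egr3 0.055 and Hspb8 0. Summed over the class, immediate early genes gave 289 to 428 TPM in the set 2 libraries and 430 to 1069 in set 1, so the sets did not overlap. Heat shock genes summed to 1746 to 2731 TPM in set 2 and 2310 to 3816 in set 1, which overlapped. The plot of levels by gene shows both classes.

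**Figure D1:**
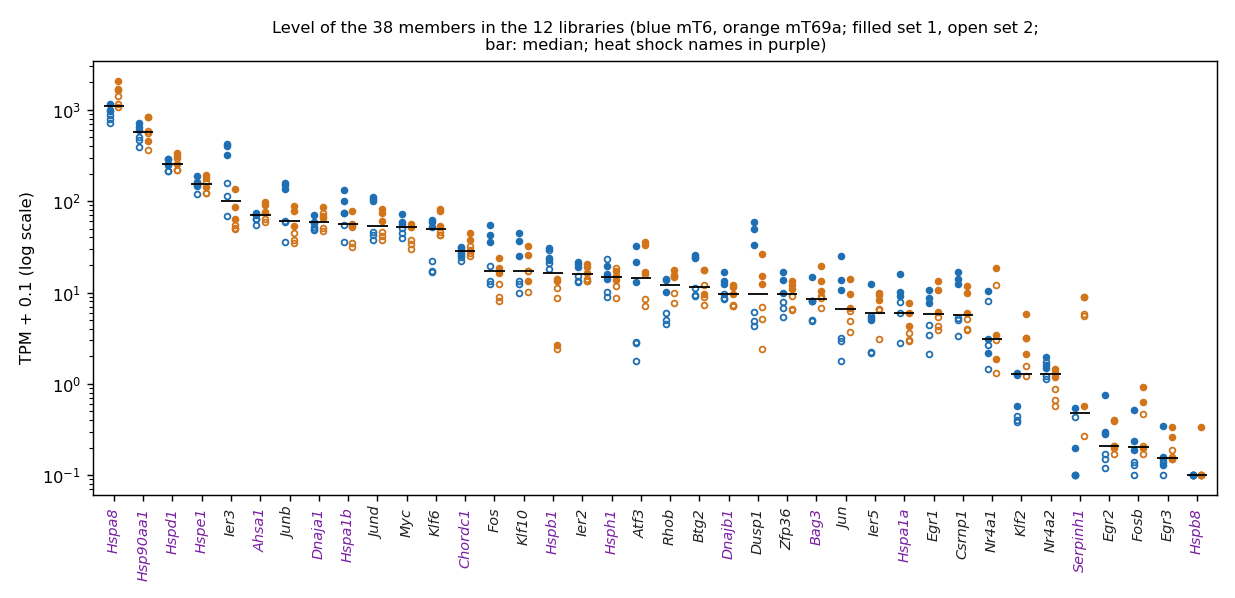
Level of each of the 38 genes in TPM + 0.1 on a log axis, 1 point per library (blue mT6, orange mT69a, filled set 1, open set 2, bar the median of 12), with heat shock gene names in purple. Hspa8 is highest at a median of 1108 TPM, and for Dusp1, Atf3, Jun and Ier3 the open points of mT6 lie well below the filled ones.

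More immediate early genes differed between the replicate sets than in any other averaged comparison. The sets were compared with the 6 groups as a block, 6 libraries against 6. Of the 22 tested genes 16 fell in set 2 and none rose, with a median log2 fold change of -0.87, against a median of -0.02 over all 14473 genes, of which 13.5% fell and 1821 rose. Of the 14 heat shock genes 7 fell and none rose, with a median of -0.22. Read group by group, 16 of 22 immediate early genes (72.7%) and 7 of 14 heat shock genes (50%) were lower in set 2 in all 6 groups, against 13.9% of all genes. The classes were not compared with each other by a test.

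Among the AP-1 genes, Fos had 24.4, 46.2 and 93.6 CPM (lowest, median and highest; counts relative to library size, scaled with TMM factors) in set 1 and 13.8, 21.1 and 32.4 in set 2, and was lower in set 2 in all 6 groups although the ranges overlapped. Its log2 fold change of -1.14 (SE 0.18) passed the test with an adjusted p = 0.00684. Jund ran from 81.2 to 155 CPM in set 1 and from 55.8 to 70.9 in set 2, with no overlap. Dusp1, the phosphatase that switches off MAP kinases, also did not overlap, at 18.8, 46.4 and 102 CPM in set 1 against 4.52, 8.89 and 11.2 in set 2. Every set 2 library lay below every set 1 library for these 2 genes, for no heat shock gene and for 0.836% of all genes. Dusp1 had the largest fold change of the 36 tested genes in this comparison and fell by 2.44 (SE 0.40, adjusted p = 0.0119). Atf3, a stress-induced transcription factor that dimerises with AP-1 proteins, had 20.3, 31.6 and 46.7 CPM in set 1 and 2.79, 7.20 and 23.0 in set 2. The sets were closest in the mT69a control, at 26.8 and 23.0 CPM, and Atf3 fell by 2.0 over all groups (SE 0.47, adjusted p = 0.0322).

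Egr1, the zinc finger factor induced with Fos, went from a median of 25.1 CPM (16.4 to 36.4) to 12.8 (6.35 to 18.3) and fell by 1.08 (SE 0.14, adjusted p = 0.00129). Junb fell by 0.98 (SE 0.22, adjusted p = 0.0265), Jund by 0.84 (SE 0.17, adjusted p = 0.0130) and Csrnp1, a nuclear factor induced by growth signals, by 1.01 (SE 0.23, adjusted p = 0.0213). Klf2, a Krüppel-like factor, fell by 0.86 (SE 0.22, adjusted p = 0.0161). Fosb fell by 1.36 (SE 0.44, adjusted p = 0.0399), but it had 3 counts or fewer in a library of 3 of the 6 groups. The remaining calls were Ier5, Rhob, Zfp36, Nr4a2, Myc, Nr4a1 and Ier2, at log2 fold changes of -0.79 to -0.27. Myc, the growth-promoting transcription factor, went from a median of 86.9 to 69.5 CPM and was lower in 5 of 6 groups (-0.38 ± 0.09 SE, adjusted p = 0.0108). Jun, the main partner of Fos, had 18.1, 32.3 and 74.1 CPM in set 1 and 5.07, 10.3 and 19.2 in set 2. Its log2 fold change of -1.58 (SE 0.46) missed the threshold in edgeR (adjusted p = 0.0591) and passed it in DESeq2 (0.00296) and on TPM (0.00492), with 0.0285 to 0.164 when single libraries were left out. Ier3, Klf6, Klf10, Btg2 and Egr3 also missed it, at -1.10 to -0.77 and, for Egr3, -1.25.

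**Figure D2:**
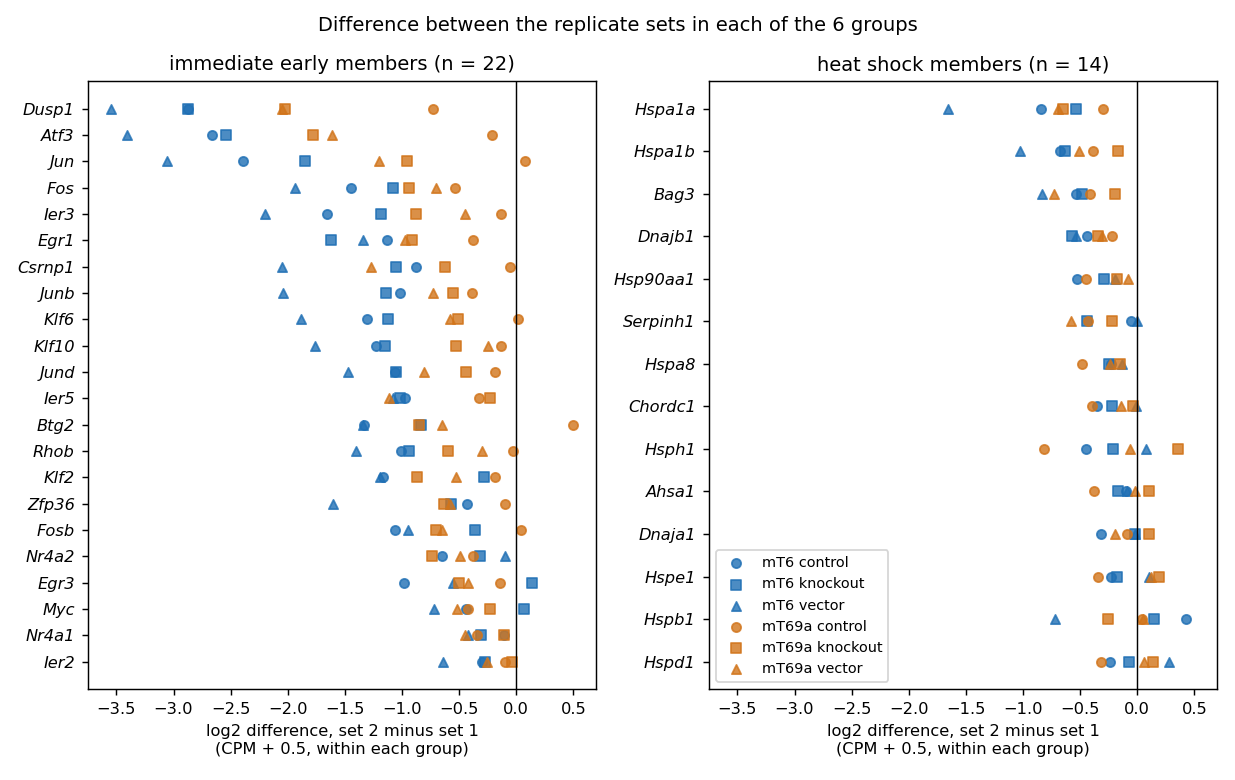
Log2 difference between set 2 and set 1 within each of the 6 groups (x axis, CPM + 0.5), 1 row per tested gene, colour for the line and symbol for the condition. Most immediate early points lie left of 0, those of mT6 (blue) mostly furthest, and Dusp1 reaches -3.55, while heat shock points lie between -1.66 and 0.43.

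Hspa1b, a heat shock gene that encodes inducible Hsp70, had 125, 173 and 315 CPM in set 1 and 93.2, 117 and 196 in set 2, was lower in all 6 groups and fell by 0.57 (SE 0.09, adjusted p = 0.00281). Hspa1a, its near-identical neighbour on chromosome 17, fell by 0.78 (SE 0.15, adjusted p = 0.00568). How reads are divided between these copies is uncertain. Their summed level was 135 to 355 CPM in set 1 and 101 to 218 in set 2, and 88.7% to 93.2% of it was assigned to Hspa1b. Bag3, a co-chaperone that links Hsp70 to autophagy, fell by 0.54 (SE 0.09, adjusted p = 0.00197), and Dnajb1, the Hsp40 partner of inducible Hsp70, by 0.41 (SE 0.07, adjusted p = 0.00245). Hsp90aa1 gave -0.29 ± 0.06 (SE, adjusted p = 0.00845), Hspa8 -0.25 ± 0.06 (adjusted p = 0.00942) and the Hsp90 co-chaperone Chordc1 -0.20 ± 0.07 (adjusted p = 0.0430). The Hsp110-type chaperone Hsph1 did not pass (-0.18 ± 0.14, adjusted p = 0.386), nor did the mitochondrial Hspd1 (-0.03 ± 0.08, adjusted p = 0.835), Hspe1, Dnaja1, Ahsa1, Hspb1 and Serpinh1.

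Further genes of the same pathways were listed separately, with earlier results of these data known, so they are not independent support. Of 37 tested immediate early, AP-1 and serum response genes 26 fell and none rose, beside the 13.5% of all genes that fell. The pleckstrin-domain gene Phlda1 fell by 0.87 (SE 0.11), the Fos relative Fosl1 by 1.34 (SE 0.19), the ERK phosphatase Dusp6 by 0.67 (SE 0.10), Ier5l by 0.80 (SE 0.13) and Srf, the serum response factor gene, by 0.43 (SE 0.07). Their adjusted p ran from 0.00151 to 0.00232. Of 38 further chaperone and stress genes 19 fell and none rose. Hmox1, the haem oxygenase induced by oxidative stress, fell by 1.13 (SE 0.20), the ubiquitin gene Ubb by 0.33, and the Hsp90 partners Stip1 and Hsp90ab1 by 0.27 and 0.21.

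The sets differed in other ways too. Mitochondrially encoded genes took 12.7% to 15.5% of the counts in set 1 and 18.6% to 27.1% in set 2, ribosomal protein genes 3.04% to 4.02% against 2.49% to 3.39%, and the 8 epithelial markers summed to 3537 to 5182 TPM against 2245 to 3221. Immune markers summed to 4.12 to 14.5 TPM in set 1 and 2.13 to 7.43 in set 2, with Ptprc, Adgre1, Cd3e and Lyz2 never above 3 counts. Fibroblast markers stayed at or below 0.36 TPM. What part these differences had was not tested, and in bulk RNA fewer cells expressing a gene and less RNA per cell cannot be told apart. On the TPM scale the median of all genes was itself -0.21 and only 5.02% of called genes were higher in set 2, against 48.3% with edgeR. Relative to that shift the median was -0.84 for immediate early and -0.13 for heat shock genes, and all 20 and 14 measured there lay below it. The number of immediate early calls was between 5 and 20 when libraries were left out singly, so that "either" here stands for each of a pair in turn. It was 7 without either mT6 control library, 6 and 5 without the set 1 and set 2 mT6 knockout libraries and 8 without either mT69a vector library. Heat shock calls stayed at 6 or 7. Without either mT6 knockout library Dusp1 missed the threshold, as Klf2 did without either mT6 control. Atf3 and Fosb kept theirs only without either mT69a control, which also brought Jun past it, and Junb and Csrnp1 lost theirs without any mT6 control, mT6 knockout or mT69a vector library. Chordc1 kept its call only without an mT69a knockout or mT6 vector library. DESeq2 called 17 immediate early and 6 heat shock genes lower, against 10.3% of all genes. It did not call Fosb (adjusted p = 0.109), Ier2, Nr4a1, Nr4a2 or Chordc1 (0.0843), and it did call Jun, Ier3, Klf6, Klf10 and Btg2. In edgeR, with no low-count filter, Csrnp1 and Junb missed the threshold (0.0646 and 0.0505).

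By line, most of the called genes belonged to mT6 in edgeR with the low-count filter and in DESeq2. Without the filter, and on TPM, more genes were called in mT69a than in the filtered edgeR fit, as the closing section gives. No mT6 count or share of all genes is given for those settings, so the lines are not compared there. In mT6, by edgeR with the filter, 18 immediate early and 5 heat shock genes fell in set 2, against 14.7% of all genes. The immediate early median in mT6 was -1.38. The sets did not overlap within mT6 for 17 immediate early and 3 heat shock genes, against 13.0% of all genes. In mT69a edgeR called Fos (-0.74 ± 0.15 SE, adjusted p = 0.0372) and Egr1 (-0.78 ± 0.13, adjusted p = 0.00946) and 0 heat shock genes lower, against 1.29% of all genes, although 13 immediate early and 7 heat shock genes were below 0.05 before adjustment. DESeq2 called 5 immediate early genes there (Fos, Egr1, Atf3, Dusp1 and Jund) and 2 heat shock genes (Hspa1b and Hspa8), against 0.912% of all genes. The immediate early median in mT69a was -0.55, all 22 fold changes were below 0, and the sets did not overlap within mT69a for 11 immediate early and 3 heat shock genes, against 5.82% of all genes. The count of both classes in mT69a ranged from 0 without either mT69a vector library to 6 without either mT6 vector library. It was 1 without either mT6 control and 5 without a single mT69a control or knockout library.

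The difference between the lines was tested directly, and 1.26% of all genes passed. Klf10, a Krüppel-like factor induced by TGF-beta, went from 64.0, 88.9 and 120 CPM in the mT6 control, knockout and vector libraries of set 1 to 27.0, 39.9 and 35.2 in set 2. In mT69a it went from 32.8, 69.5 and 64.0 to 29.8, 47.8 and 53.9. The log2 difference was less negative in mT69a by 1.06 (SE 0.16, adjusted p = 0.0191). Rhob, which encodes a small GTPase, went from 19.8, 26.2 and 29.0 CPM to 9.61, 13.4 and 10.7 in mT6 and from 33.7, 25.8 and 29.8 to 33.1, 16.9 and 24.2 in mT69a, a difference of 0.83 (SE 0.18, adjusted p = 0.0426). Klf10 lost its call without the set 2 mT69a control or either mT69a vector library, and Rhob kept its call only without an mT69a knockout library. DESeq2 called 7 immediate early genes for this difference, against 1.37% of all genes, adding Atf3, Dusp1, Jun, Jund and Klf6, and the TPM test called 0. No heat shock gene passed by edgeR (1 was below 0.05 before adjustment) or by DESeq2.

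**Figure D3:**
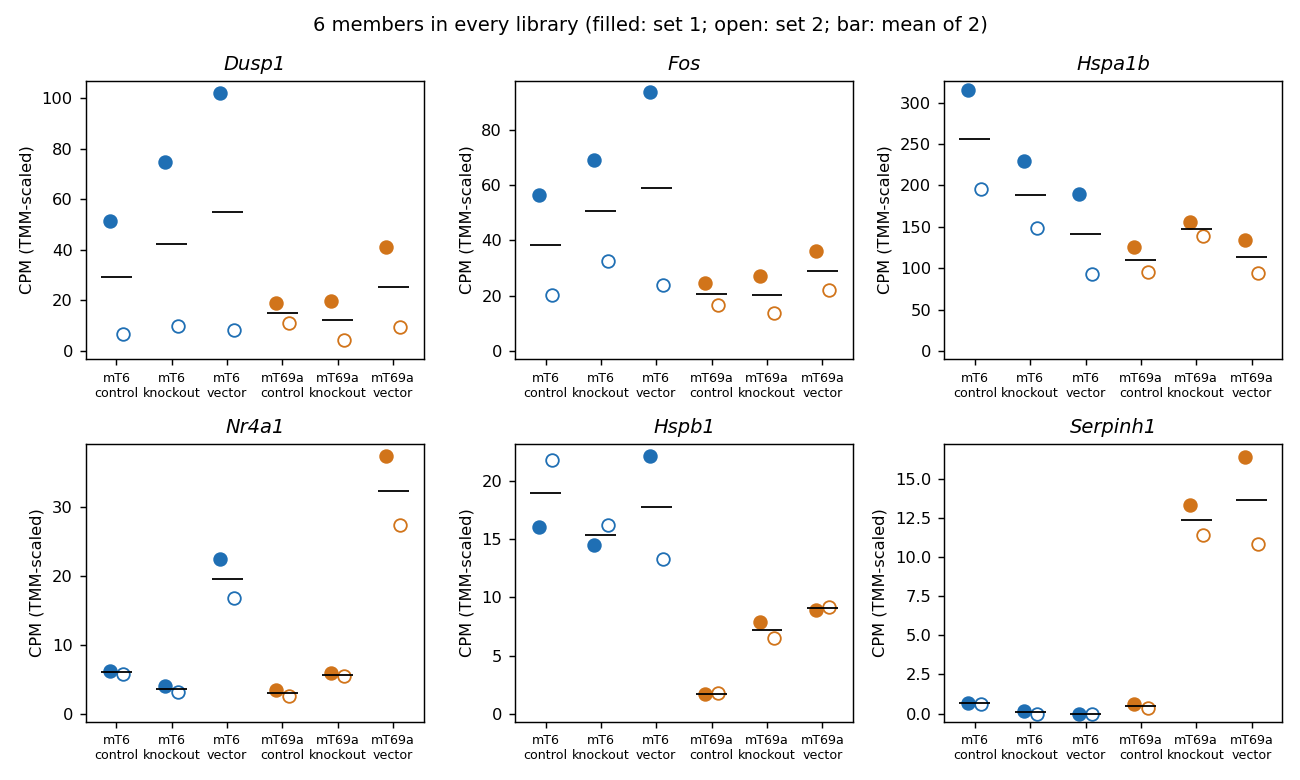
CPM of 6 genes in each library by group (filled set 1, open set 2, bar the mean of 2). In the upper panels every open point lies below its filled one, and in the lower panels Nr4a1 reaches 16.7 to 37.4 CPM in the vector libraries and Serpinh1 10.8 to 16.4 in the mT69a knockout and vector libraries.

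Between the Spdef knockout and the control, averaged over the lines, the immediate early genes did not pass without the replicate block and with the low-count filter. None of 22 was called by edgeR, where 0 had p under 0.05 before adjustment, or by DESeq2, where 1 did. Fold changes ran from -0.72 to 0.71 on the log2 scale with a median of 0.12, and 5.60% of all genes passed. The set-to-set spread within groups enters their errors. Dusp1 gave 0.15 ± 1.09 (SE) and Fos 0.21 ± 0.51. With the replicate set as a block, 15% of all genes passed and Ier5, an immediate early gene that regulates Hsf1, fell by 0.72 (SE 0.16, adjusted p = 0.0146). Of 37 related immediate early genes 2 rose, the kinase gene Sgk1 by 1.34 (SE 0.23) and the ETS factor gene Elk3 by 0.68 (SE 0.11). By line, both were called in mT69a, against 8.60% of all genes, and neither in mT6. Both were also called for the difference between the lines, against 6.62% of all genes.

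Of the 14 heat shock genes Hspb1, which encodes the small heat shock protein Hsp27, was the only call. It stood at 16.1 and 21.8 CPM in the mT6 controls (set 1 and set 2) and 14.5 and 16.2 in the mT6 knockout. In mT69a it stood at 1.69 and 1.75 CPM in the controls and 7.90 and 6.52 in the knockout. The libraries of mT69a separated fully, with the knockout higher, and those of mT6 overlapped. On average Hspb1 rose by 0.88 (SE 0.18, adjusted p = 0.0184), by 2.07 in mT69a (SE 0.28, adjusted p = 0.00130) and gave -0.31 ± 0.23 in mT6 (adjusted p = 0.578). The averaged call was lost on TPM (adjusted p = 0.101) and without either mT69a control, the set 1 mT69a knockout, the set 1 mT6 control or the set 2 mT6 knockout library (up to 0.0853). Of 38 related heat shock genes only Cacybp, a calcyclin-binding co-chaperone, was called, and it fell by 0.53 (SE 0.11). By line, Cacybp was called in mT6 and not in mT69a, and it was also called for the difference between the lines.

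In mT6 alone no gene of either class passed (edgeR gave 3 below 0.05 before adjustment, and DESeq2 called 0), against 3.23% of all genes. The block called 3 there, Ier5 (-1.32 ± 0.23 SE), Nr4a1 (-0.75 ± 0.16) and Serpinh1, all lower, against 12.5% of all genes. Ier5 stood at 34.1 and 17.1 CPM in the mT6 controls and 14.0 and 6.64 in the knockout. Without the block it did not pass in edgeR (adjusted p = 0.244). In mT69a 3 genes rose, against 8.60% of all genes, namely Hspb1, Nr4a1 and Serpinh1. Nr4a1, an orphan nuclear receptor, went from 3.38 and 2.56 CPM to 5.86 and 5.39 in mT69a (0.92 ± 0.24 SE, adjusted p = 0.0434) and from 6.25 and 5.75 to 4.07 and 3.2 in mT6. The mT69a call missed the threshold on TPM (adjusted p = 0.199) and in 9 of the 12 fits that left out a library (up to 0.296). It held without the set 1 mT69a vector library or either mT6 vector library. Serpinh1, the collagen-specific chaperone Hsp47, had 10 and 5 counts in the mT69a controls and 248 and 131 in the knockout, or 0.625 and 0.337 against 13.3 and 11.4 CPM. It rose by 4.65 (SE 0.47, adjusted p = 0.000332). Only the mT69a knockout and vector libraries brought Serpinh1 past the low-count filter, so this call is not separate from that selection. The mT6 controls held 9 and 18 counts and the mT6 knockout 2 and 0, too few for a fold.

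For all 3 genes the difference between the libraries labelled knockout and control also differed between the lines, as it did for 6.62% of all genes. The difference, mT69a minus mT6, was 2.38 for Hspb1 (SE 0.37, adjusted p = 0.00400) and 1.66 for Nr4a1 (SE 0.34, adjusted p = 0.0162). For Serpinh1 the fitted 7.84 (SE 0.90, adjusted p = 0.00121) rests on the mT6 knockout counts of 2 and 0 and is not a measured size. Within each set the directions held. Nr4a1 differed by -0.56 and -0.76 in mT6 and by 0.71 and 0.95 in mT69a on log2(CPM + 0.5), and Hspb1 by -0.14 and -0.42 against 1.94 and 1.64. The Nr4a1 difference lost its call without the set 2 mT69a control, the set 1 mT69a knockout, the set 1 mT6 control or the set 2 mT6 knockout library, and on TPM (adjusted p = 0.139). The block called 6 genes for this difference, adding Egr3, Ier5 and Hspa1b, against 15.2% of all genes. Egr3 had 11 and 5 counts in the mT6 controls and 1 and 3 in the mT6 knockout. In mT69a it had 2 and 1 in the controls and 13 and 4 in the knockout. Egr3 passed the low-count filter through the 11 and the 13, which also raise the difference, so its call is not separate from that selection.

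**Figure D4:**
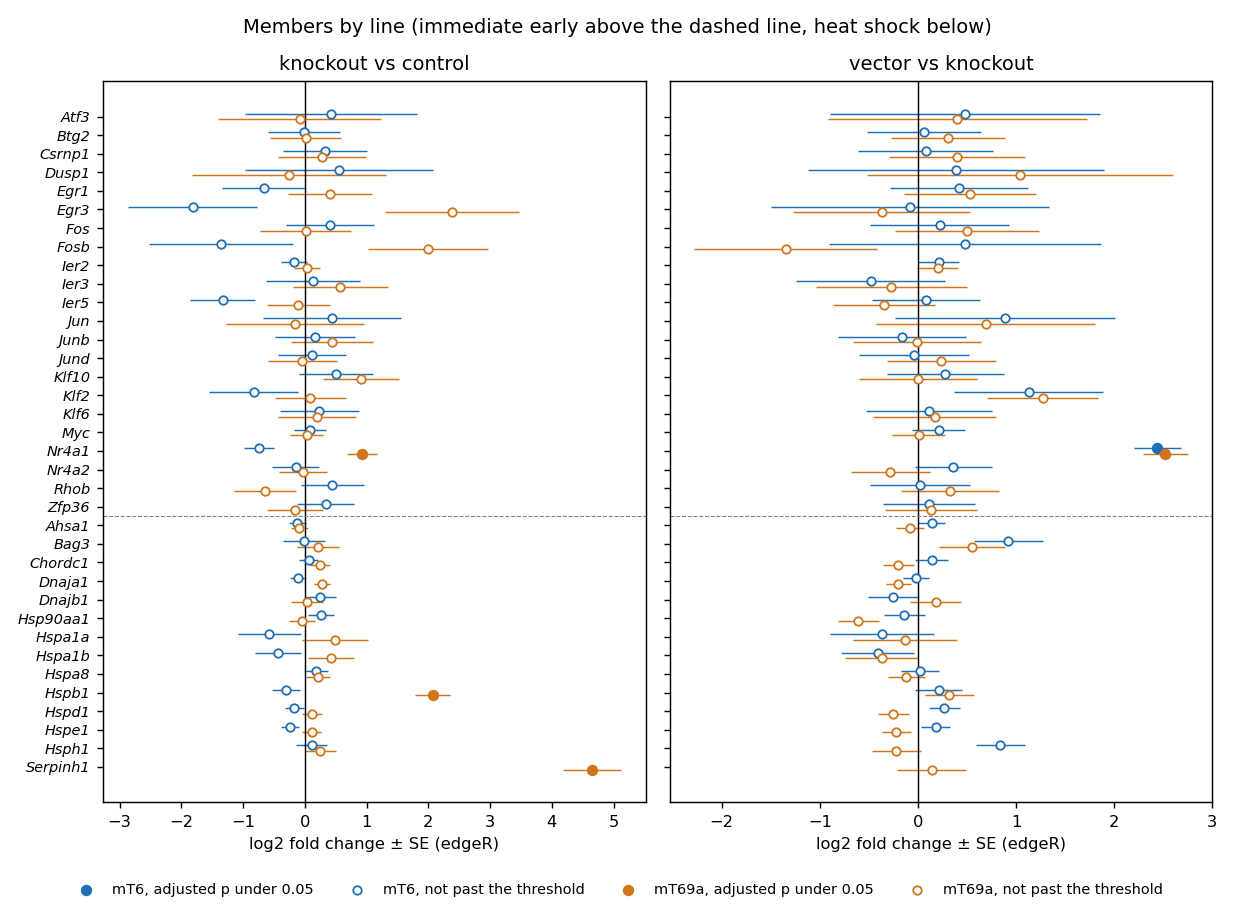
Log2 fold change ± SE (edgeR) of each tested gene in mT6 (blue) and mT69a (orange), knockout against control on the left and SPDEF vector against knockout on the right, filled where the adjusted p was under 0.05. Nr4a1 is filled in both lines on the right, at 2.44 and 2.52, and Serpinh1 is left out for mT6, where its counts were 2 or fewer in the knockout and vector libraries.

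Adding the SPDEF vector to the knockout clones was accompanied by a rise in Nr4a1, the only gene of either class that edgeR called without the replicate block and with the low-count filter. Nr4a1 stood at 4.07 and 3.2 CPM in the mT6 knockout libraries and at 22.4 and 16.7 with the vector. In mT69a it stood at 5.86 and 5.39 CPM and at 37.4 and 27.3 with the vector. Every vector library lay above every knockout and control library. The log2 fold change was 2.48, or 5.59-fold (SE 0.16, adjusted p = 1.63e-05), and 7.77% of all genes passed. It was 2.44 in mT6 (SE 0.24, adjusted p = 0.000564), where 2.69% of genes passed, and 2.52 in mT69a (SE 0.23, adjusted p = 0.000230), where 4.25% did. The difference between the lines was 0.08 (SE 0.32, adjusted p = 1), and 0.0138% of all genes passed that test. Within single sets the difference was 2.33 and 2.22 in mT6 and 2.58 and 2.24 in mT69a. Nr4a1 kept its call in every fit that left out a library (2.36 to 2.60). Its relative Nr4a2 and the other 20 immediate early genes did not pass, and the class median was 0.16.

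Between vector and knockout edgeR called no heat shock gene (2 were below 0.05 before adjustment), and DESeq2 called Bag3, against 8.93% of all genes. Bag3 stood at 16.5 and 11.8 CPM in the mT6 knockout and 34.2 and 19.0 with the vector, and at 24.1 and 21 against 41.2 and 24.6 in mT69a (0.73 ± 0.24 SE, adjusted p = 0.109). It was higher with the vector in each line and set. With the replicate block 15.8% of all genes passed, Bag3 and Klf2 rose by 0.70 and 1.17 (SE 0.11 and 0.31), and Hsp90aa1 and Hspa1b fell by 0.37 and 0.43 (SE 0.08 and 0.11). By line, the block called Bag3 in both (0.89 in mT6, 0.51 in mT69a) and Klf2 (1.32) and Hsp90aa1 (-0.60) in mT69a, against 7.29% of all genes in mT6 and 10.6% in mT69a. Of the related heat shock genes the small heat shock protein gene Cryab rose by 2.40 (SE 0.39) and the Hsp40 gene Dnaja4 by 2.10 (SE 0.35). Of the related immediate early genes Sgk1 fell by 1.20 (SE 0.23) and Elk3 by 0.50 (SE 0.11). By line, edgeR called these related genes in mT69a and not in mT6, and called none of them for the difference between the lines.

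The vector libraries were also compared with the controls. This shares its libraries with the preceding comparisons, so its values stand beside theirs and are not independent. Nr4a1 was higher by 2.58 (SE 0.16, adjusted p = 6.73e-06), Hspb1 by 1.14 (SE 0.18, adjusted p = 0.00216) and Bag3 by 0.83 (SE 0.24, adjusted p = 0.0464), and 14.5% of all genes passed. Bag3 stood at 17.1 and 11.6 CPM in the mT6 controls and 22.1 and 16.6 in the mT69a controls. Its call was lost on TPM (adjusted p = 0.277) and in 9 of 12 fits that left out a library, and held without the set 1 mT6 control or the set 2 vector library of either line. Hspb1 stood at 16.1 and 21.8 CPM in the mT6 controls and 22.2 and 13.3 with the vector, which overlapped. In mT69a it stood at 1.69 and 1.75 CPM in the controls and 8.90 and 9.20 with the vector. The averaged Hspb1 rise was therefore seen in mT69a only, although vector and control were not tested by line. Between vector and knockout, averaged over the lines, Hspb1 gave 0.26 (SE 0.17) and did not pass. With the block 25.4% of all genes passed, and Ier5, Hsp90aa1 and Hspa1b were lower by 0.90, 0.25 and 0.42 (adjusted p = 0.00279, 0.0353 and 0.0201).

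The 2 lines differed from each other in 45.2% of all genes, averaged over the conditions. Of the immediate early genes 3 passed. Klf2 stood at 0.492 to 1.99 CPM in mT6 and 1.91 to 8.55 in mT69a and was higher in mT69a by 2.07 (SE 0.38, adjusted p = 0.00131). Ier3 stood at 65.3 to 355 CPM in mT6 and 50 to 101 in mT69a, with the highest values in set 1 of mT6, and was lower by 1.79 (SE 0.46, adjusted p = 0.0127). Nr4a2, a relative of Nr4a1, was lower by 0.66 (SE 0.22, adjusted p = 0.0356). Of the heat shock genes 5 passed. Hspb1 was lower in mT69a by 1.84 (SE 0.15, adjusted p = 6.35e-06), a value that averages over unlike conditions. Mean Hspb1 was 18.9 CPM in the mT6 controls and 1.72 in the mT69a controls. In the same order it was 15.3 and 7.21 in the knockout and 17.7 and 9.05 with the vector. Hspa8 was higher in mT69a by 0.70 (SE 0.11, adjusted p = 0.000535), at 1827 to 2663 against 1217 to 1628 CPM, with no overlap. Hspa1a and Hspa1b were lower by 0.92 and 0.63 (SE 0.31 and 0.21, adjusted p = 0.0363 and 0.0369). The averaged Serpinh1 value of 5.88 (SE 0.49, adjusted p = 1.61e-05) averages over controls with 27 counts in mT6 and 15 in mT69a and over mT6 knockout and vector libraries with 2 or fewer, and is not a measured size. Nr4a2, Hspa1a and Hspa1b were not called on TPM and lost their calls in 7, 8 and 8 of 12 fits that left out a library (up to 0.104). With the block 56.2% of all genes passed, with 9 genes of each class, adding Fos, Junb and Myc (lower in mT69a), Fosb, Ier5 and Rhob (higher), Dnajb1 (lower), and Ahsa1, Bag3 and Dnaja1 (higher). Of the related genes, the NF-kappa-B inhibitor gene Nfkbia was lower in mT69a by 1.97 (SE 0.30) and Hsf1 higher by 0.60 (SE 0.09).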

How the data were processed

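RNA from 12 organoid libraries was prepared with a stranded total RNA kit, per the labels' protocols. Reads were aligned with STAR 2.5.2b and quantified with RSEM 1.3.0 on GRCm38.p6, per the submitters' processing notes, which also name FastQC 0.11.8. The authors deposited an expected count and a TPM value for each gene and library. RSEM divides reads between similar genes by estimation, so values of near-identical copies are uncertain, and TPM keeps no depth. Between 23.5% and 27.3% of the expected counts above 0 were not whole numbers (tolerance 0.005), and they were rounded. Of 53715 identifiers 53620 matched GENCODE M21, and the unmatched ones held 0.0109% of counts.

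Genes passing filterByExpr (14473) were tested with edgeR 4.0.16 (TMM factors 0.839 to 1.20, robust quasi-likelihood F test, 2-sided, Benjamini-Hochberg adjustment over all tested genes, threshold 0.05). Every adjusted p in the text is edgeR's unless another tool is named, and a standard error is the log2 fold change divided by the square root of F. Condition and line comparisons used a model with the 6 groups, averaging over the other factor where no line is named. The replicate set was compared with the groups as a block, and by line with a separate set term per line. All 12 libraries entered each model, so they share 1 estimate of the spread. CPM were scaled with TMM factors, and differences within a group or set are on log2(CPM + 0.5). DESeq2 1.42.0, edgeR with RLE factors or without the filter, limma 3.58.1 on log2(TPM + 1), mitochondrial genes left out, a replicate block and leaving out each library were the alternatives. The replicate numbers were taken to pair libraries, because the set differences of all genes correlated at 0.21 to 0.60 in all 15 pairs of groups. The models were tested on simulated data.

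The genes, the lists and the comparisons were chosen with earlier results of these data known. Named genes were those past the threshold, at most 8 per class and comparison by size, plus Fos, Egr1, Jun, Atf3, Myc, Hspa1a, Hspa1b, Hspa8, Dnajb1 and Hsph1 in the set comparison, and at most 5 per related list by adjusted p. Genes given only for their TPM level, and Bag3 and Ier5 where they did not pass, were added after their values were seen.

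Some genes and alleles are not reported here.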

Additional observations from a re-analysis of the deposited data

Results flagged for a closer look

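The difference between the libraries labelled Spdef knockout and control differed between the lines for 3 genes, by an edgeR test of the difference itself. Of all genes, 6.62% passed the same test. Spdef was too low in mT69a for its loss to be seen there. On the log2 scale, mT69a minus mT6, it was 2.38 for Hspb1 (adjusted p = 0.00400), 1.66 for Nr4a1 (adjusted p = 0.0162) and a fitted 7.84 for Serpinh1 (adjusted p = 0.00121), whose mT6 knockout libraries held 2 and 0 counts. Leaving out single libraries moved the Serpinh1 value between 6.48 and 11. Serpinh1 passed the low-count filter only through the mT69a knockout and vector libraries, where it was high.

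The difference between the replicate sets itself differed between the lines for 2 genes in edgeR, against 1.26% of all genes. It was less negative in mT69a by 1.06 for Klf10 (adjusted p = 0.0191) and by 0.83 for Rhob (adjusted p = 0.0426).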

How the results depend on the processing

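No named value changed sign under any alternative. Apart from leaving out libraries, 210 of the values for single genes kept their side of the threshold, 13 lost their call and 2 gained one, and 98 counts stayed within 1.5 times and 40 did not. With the replicate block the knockout comparison called 1 immediate early gene and 2171 genes in all, vector against knockout 2 immediate early, 3 heat shock and 2293 genes, vector against control 2, 4 and 3677, and the lines 9 immediate early and 9 heat shock genes. The block gave 3 genes of both classes for the knockout in mT6, 6 for its difference between lines, and 2 in mT6 and 4 in mT69a for the vector. It changed no other call of a named gene.

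Without the low-count filter, which tests 27661 genes, the immediate early calls were 2 for the knockout, 6 for vector against knockout, 8 for vector against control and 15 for the lines. The heat shock calls were 2 for vector against knockout and 4 for vector against control. All genes gave 1555 for the knockout, 1740 for vector against knockout, 2639 for vector against control and 7068 for the lines. Both classes gave 3, 6 and 8 for the knockout in mT6, in mT69a and their difference, 4, 5 and 1 for the vector likewise, and 20 and 13 for the set in mT69a and its difference. On TPM all genes gave 311, 463, 806 and 3709 for the knockout, vector against knockout, vector against control and the lines, with 3 heat shock genes for the lines, 26 genes for the set in mT69a and 0 for its difference. DESeq2 gave 1 heat shock gene for vector against knockout, and 7 and 7 for the set in mT69a and its difference. The cause was not tested. For the counts by line without the filter and on TPM, the share of all genes is not given. Those counts cannot be set against a background.

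Leaving out single libraries gave 431 to 889 genes for the knockout (0 to 1 heat shock, 0 immediate early), 637 to 1098 for vector against knockout (0 to 1 heat shock, the 1 without the set 2 mT6 vector library), 1208 to 1904 for vector against control (1 to 2 heat shock), and 5520 to 6492 for the lines (2 to 5 immediate early, 3 to 6 heat shock). The set gave 1835 to 3685 genes (5 to 20 immediate early, 6 to 7 heat shock), 17 to 24 genes of both classes in mT6, 0 to 6 in mT69a and 1 to 3 for the difference. The knockout gave 2 to 3 in mT69a and 2 to 3 for its difference. The set count over all genes was 2110 and 2063 without an mT6 control and 1928 and 1835 without an mT6 knockout library. A lone remaining library is assumed to vary like the other groups. Depth limits Fosb, Egr3 and Serpinh1, which had 3 counts or fewer in several libraries.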
